A study of Mus musculus with 45 samples.

Results

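RNA libraries of 2 mouse tumour lines carrying the same control hairpin were compared across all genes: 3 libraries labelled Hepa1-6 shLucif and 3 labelled CT26 shLucif, 6 of the 45 labelled samples in the series. They were chosen as the luciferase hairpin columns of the FPKM table of the knockdown experiment, by their column names. Hepa1-6 is a mouse hepatoma line and is given as a liver line in the labels; CT26 is given as a colon carcinoma line. Both groups carry the hairpin shLucif, whose target, firefly luciferase, is not a mouse gene, and they have no drug treatment; cells were collected 24 hours after seeding. A further 3 groups of 3 libraries served as yardsticks for what each line expresses: Hepa1-6 with a scrambled hairpin (same table, 24 hours), and Hepa1-6 and CT26 kept for 48 hours with DMSO, the solvent control of the separate drug experiment. The labels do not say whether replicates are separate cultures or whether the hairpin lines are clones or pools, so p-values measure the spread between these libraries, which may be technical. By their labels all 6 hairpin libraries share a batch date.

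Hepatocytes and hepatoma cells are known for secreting plasma proteins such as albumin and transferrin and lipid carriers such as apolipoproteins, under transcription factors of the HNF1, HNF4 and FOXA families. CT26 is known as an undifferentiated carcinoma line that grows with a spindle shape and has lost much of the epithelial programme of keratins and junction proteins. The series concerns Soat1, which encodes the enzyme that stores cholesterol as esters in the endoplasmic reticulum; its relative Soat2 does the same in liver and intestine.

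FPKM divide the fragments of a gene by its transcript length and by the size of the library, so levels are per length and can be set side by side between genes. FPKM summed to between 320605 and 335813 in the 6 libraries, and between 11159 and 11555 genes reached 1 FPKM. FPKM carry no read totals, so depth is unknown; the lowest FPKM steps gave relative depths of 0.652, 1.06 and 0.925 in the libraries labelled Hepa1-6 shLucif and 1, 0.987 and 0.933 in the CT26 shLucif libraries. Pearson r across 13120 genes was 0.989 to 0.991 between libraries labelled Hepa1-6 shLucif and 0.992 to 0.993 between CT26 shLucif libraries. Of 20 leukocyte markers 18, and of 16 endothelial markers 15, averaged under 1 FPKM in the libraries labelled Hepa1-6 shLucif, against 18 and 16 in CT26 shLucif; the summed levels were 26.9 to 31.4 and 4.35 to 5.2 FPKM, against 23.8 to 24.1 and 1.33 to 1.47. Ptprc, the pan-leukocyte phosphatase, and Pecam1, an endothelial adhesion molecule, were below 0.2 FPKM in all 6 libraries.

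The libraries labelled Hepa1-6 shLucif held mRNAs of both lines. In the DMSO libraries 169 protein-coding genes averaged at least 10 FPKM in Hepa1-6 and were under 0.5 FPKM in each CT26 library, and 152 genes had the reverse pattern. Of the 169 Hepa1-6 genes, 146 (86.4%) averaged at least 1 FPKM in the libraries labelled Hepa1-6 shLucif, against 168 in Hepa1-6 scramble and 1 in CT26 shLucif. Of the 152 CT26 genes, 143 (94.1%) did so in the libraries labelled Hepa1-6 shLucif, against 3 in Hepa1-6 scramble and 152 in CT26 shLucif. The libraries labelled Hepa1-6 shLucif therefore carried most of the CT26 genes that Hepa1-6 scramble lacks. What gave these libraries both sets of mRNAs was not tested, and the group is called by its label below. Every difference from CT26 shLucif is a difference between these libraries; it cannot be read as the whole difference between the lines.

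Whole libraries were compared next. Over 13120 genes the libraries labelled Hepa1-6 shLucif correlated with the mean Hepa1-6 DMSO profile at r = 0.893 to 0.894 and with the mean CT26 DMSO profile at 0.910 to 0.913. The Hepa1-6 scramble libraries correlated at 0.982 to 0.983 with Hepa1-6 DMSO and at 0.752 to 0.755 with CT26 DMSO. The CT26 shLucif libraries correlated at 0.745 to 0.748 with Hepa1-6 DMSO and at 0.960 to 0.962 with CT26 DMSO. These coefficients are across genes within libraries and describe them, with no test.

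Among single genes, Cdkn2a encodes the cell cycle inhibitors p16 and p19 (ENSMUSG00000044303, GRCm38 chromosome 4, 89274471 to 89294653, minus strand), and its neighbour Cdkn2b encodes p15 (ENSMUSG00000073802, 89306299 to 89311039, minus strand). Cdkn2a was at 7.52, 6.80 and 8.80 FPKM in the libraries labelled Hepa1-6 shLucif and at 0 in each CT26 shLucif library, with a mean of 30.9 in Hepa1-6 scramble. Cdkn2b was at 25.6, 23.4 and 25.6 FPKM in the libraries labelled Hepa1-6 shLucif and at 0 in each CT26 shLucif library, with 42.2 in scramble. CT26 therefore showed neither gene in any library, and the libraries labelled Hepa1-6 shLucif showed both, below the level in scramble. Xist, the RNA that silences an X chromosome in female cells, was at 25.6, 23.6 and 24.3 FPKM in the libraries labelled Hepa1-6 shLucif, against 0.0228, 0.0146 and 0.00689 in CT26 shLucif and a mean of 48.6 in scramble.

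From the other side, Tmsb4x, which encodes the actin-binding thymosin beta 4, was at 193, 193 and 195 FPKM in the libraries labelled Hepa1-6 shLucif and at 228, 216 and 208 in CT26 shLucif, against a mean of 0.110 in Hepa1-6 scramble and 0 in each Hepa1-6 DMSO library. Twist1, a transcription factor of the mesenchymal state, was at 29.9, 29.8 and 28.5 FPKM in the libraries labelled Hepa1-6 shLucif and at 28.9, 28.2 and 30.6 in CT26 shLucif, where the groups overlap (limma adjusted p = 0.853). It averaged 0.0318 FPKM in scramble. Slc25a4, the heart and muscle form of the mitochondrial ADP/ATP carrier, averaged 150 ± 1.79 FPKM in the libraries labelled Hepa1-6 shLucif and 168 ± 1.90 in CT26 shLucif (SD, n = 3 each), against 0.136 in scramble. H2-K1, an MHC class I heavy chain gene whose reads can be split among its paralogs, averaged 10.7 ± 0.160 FPKM in the libraries labelled Hepa1-6 shLucif and 29.3 ± 4.43 in CT26 shLucif, against 0.0312 in scramble. These CT26 genes ran from about the CT26 level (Twist1) to well below it (H2-K1) in the same 3 libraries.

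**Figure D1:**
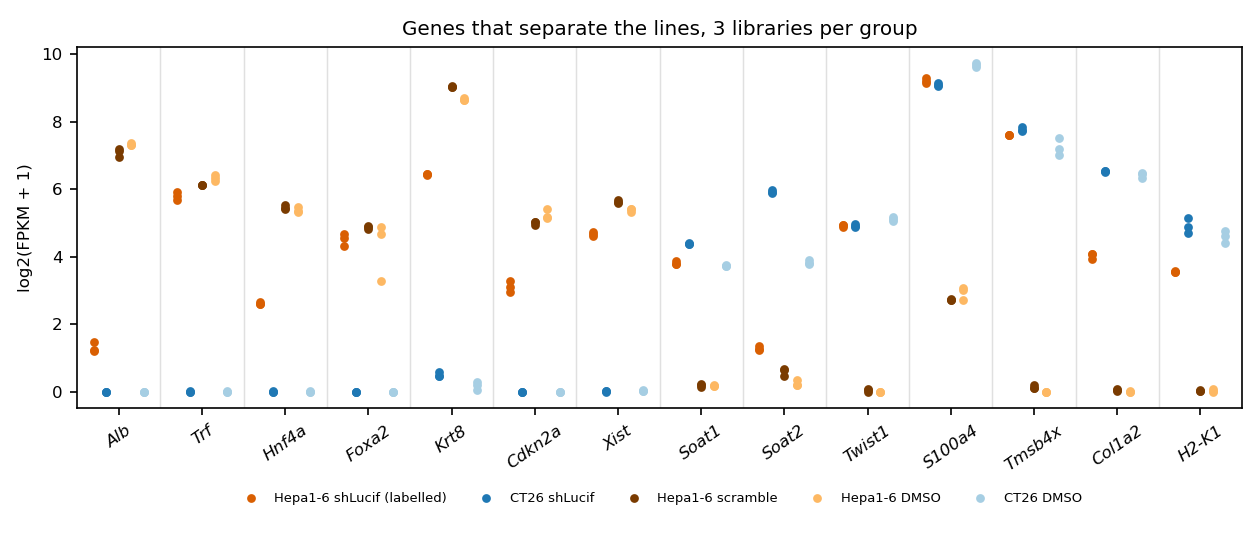
log2(FPKM + 1) of 14 genes that separate the lines (vertical axis) in the 3 libraries of each of 5 groups; each point is 1 library. The libraries labelled Hepa1-6 shLucif hold genes absent from CT26 (Trf, Foxa2, Cdkn2a, Xist) and genes absent from the other Hepa1-6 groups (Twist1, Tmsb4x, Soat1); for Twist1 their 3 values of 28.5 to 29.9 FPKM overlap those of CT26 shLucif, 28.2 to 30.6.

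The line genes differed widely in their level relative to the other hairpin groups. Among the 151 Hepa1-6 genes with at least 10 FPKM in scramble, the level in the libraries labelled Hepa1-6 shLucif had a median of 23.3% of the scramble level, with quartiles of 7.87% and 40.9% and a range of 0% to 306%. For the 120 CT26 genes with at least 10 FPKM in CT26 shLucif, the median was 36.1% of the CT26 shLucif level, with quartiles of 20.3% and 55.8% and a range of 1.18% to 241%. Line genes also varied between groups of 1 line. The 169 Hepa1-6 genes had quartiles of 80.8% and 124% in scramble relative to Hepa1-6 DMSO. The 152 CT26 genes had quartiles of 71.3% and 130% in CT26 shLucif relative to CT26 DMSO. Tff3, which encodes a secreted intestinal trefoil peptide, was at 77.4, 80.6 and 74.5 FPKM in the scramble libraries and is listed at 0 in each library labelled Hepa1-6 shLucif. Sprr1a, a cornified envelope precursor, stood at 1.41% of its scramble level, Krt8 at 16.5%, Cdkn2a at 25%, Trf at 79.3% and Stra6 at 122%.

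**Figure D2:**
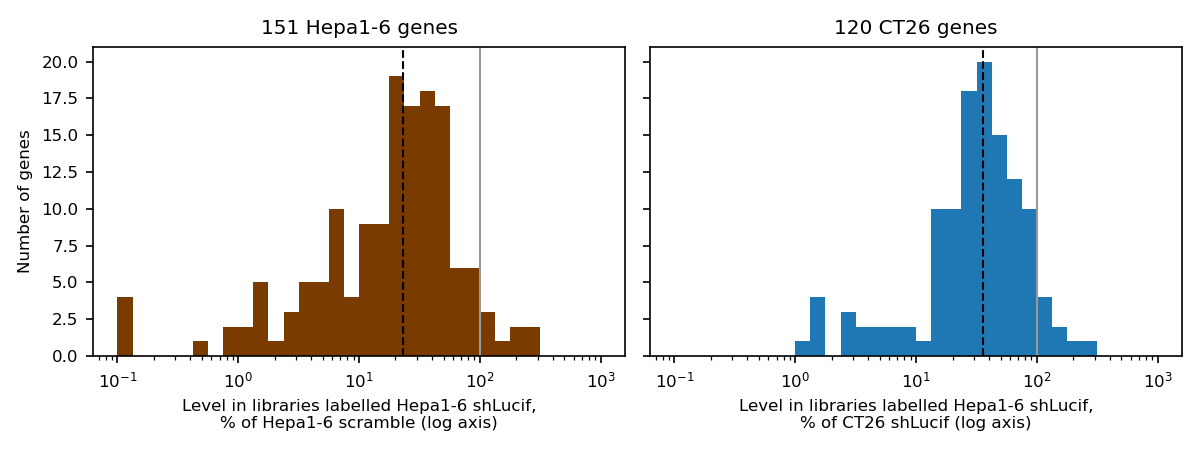
Number of line genes (vertical axis) by their mean level in the libraries labelled Hepa1-6 shLucif, in percent on a log axis, relative to Hepa1-6 scramble for 151 Hepa1-6 genes (left) and relative to CT26 shLucif for 120 CT26 genes (right); values under 0.1% are drawn at 0.1%. Dashed lines are the medians, 23.3% and 36.1%, and grey lines mark 100%; both distributions are wide.

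The promoters below are shown because the results on Alb, Apoc2, Hnf4a and Soat1 turn on these genes, and because GTTAAT is the half-site of HNF1, the liver and kidney homeodomain factor. They are RefSeq promoters of GRCm38.p6, 250 bases before to 50 after a transcription start, written on the strand of the gene, with each GTTAAT or its reverse complement ATTAAC in capitals. Of the 99 genes in the 4 hepatocyte lists, 69 have a promoter in the table. At least 1 match was found in 18 of their 85 promoters (21.2%), and in 2332 of all 32851 promoters (7.10%). The Alb promoter (chr5:90460620-90460919, plus strand) holds a match that starts 32 bases before the RefSeq transcription start. The Apoc2 promoter (chr7:19677892-19678191, minus strand) holds one at 89 bases before its RefSeq start. The coordinates of Alb given below are from GENCODE and begin downstream of the RefSeq start of Alb, so this position depends on the annotation. For Hnf4a 1 of 2 promoters is shown (chr2:163546905-163547204, plus strand), with adjacent matches at 81 and 74 bases before the start. It was chosen for its number of matches, so these matches do not describe both Hnf4a promoters. The Soat1 promoter (chr1:156474279-156474578, minus strand) holds none, like most of all 32851 promoters and most of those of the hepatocyte lists. A match is a description of these letters only.
Alb: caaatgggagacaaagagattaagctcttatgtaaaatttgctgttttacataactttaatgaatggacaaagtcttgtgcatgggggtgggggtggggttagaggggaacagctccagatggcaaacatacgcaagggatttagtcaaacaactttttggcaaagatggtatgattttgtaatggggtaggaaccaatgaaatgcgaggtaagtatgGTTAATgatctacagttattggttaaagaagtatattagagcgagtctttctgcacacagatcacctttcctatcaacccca
Apoc2: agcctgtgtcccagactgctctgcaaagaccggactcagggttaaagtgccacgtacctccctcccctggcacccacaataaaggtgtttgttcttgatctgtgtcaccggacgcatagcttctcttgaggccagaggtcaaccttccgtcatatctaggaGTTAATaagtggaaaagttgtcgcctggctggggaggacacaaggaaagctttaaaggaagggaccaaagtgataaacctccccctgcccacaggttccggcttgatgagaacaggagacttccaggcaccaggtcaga
Hnf4a: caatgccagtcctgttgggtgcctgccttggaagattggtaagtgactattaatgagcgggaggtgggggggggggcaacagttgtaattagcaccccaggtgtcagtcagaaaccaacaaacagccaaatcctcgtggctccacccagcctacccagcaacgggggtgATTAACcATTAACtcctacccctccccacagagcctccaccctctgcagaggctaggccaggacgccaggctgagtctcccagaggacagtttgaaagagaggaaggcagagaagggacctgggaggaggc
Soat1: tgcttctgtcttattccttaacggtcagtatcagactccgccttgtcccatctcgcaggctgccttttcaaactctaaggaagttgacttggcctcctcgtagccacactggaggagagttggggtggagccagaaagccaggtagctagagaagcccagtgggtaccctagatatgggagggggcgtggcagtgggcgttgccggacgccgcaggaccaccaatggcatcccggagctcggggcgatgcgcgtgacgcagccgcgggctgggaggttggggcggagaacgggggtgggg

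Alb, the main plasma carrier protein, stood at 1.78, 1.36 and 1.33 FPKM in the libraries labelled Hepa1-6 shLucif and is listed at 0 in each CT26 shLucif library (ENSMUSG00000029368, chromosome 5, 90460897 to 90476602; limma adjusted p = 9.08e-06). The scramble libraries held 143, 123 and 140 FPKM, so Alb in the libraries labelled Hepa1-6 shLucif was at 1.10% of that level. Apoc2, which activates lipoprotein lipase, was at 9.15, 9.88 and 11 FPKM and at 0 in each CT26 shLucif library (adjusted p = 9.37e-08), with 14.8, 8.13 and 45.7 in scramble. Hnf4a, the central hepatocyte nuclear receptor, was at 5.06, 5.37 and 5.01 FPKM in the libraries labelled Hepa1-6 shLucif and at 0.0119, 0 and 0 in CT26 shLucif (log2 fold change 2.61, SE 0.0540, adjusted p = 8.41e-08), with 43.2 on average in scramble. All 3 genes were higher in each library labelled Hepa1-6 shLucif than in any CT26 shLucif library, and Alb and Hnf4a lay far below scramble.

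Which genes differ between the libraries labelled Hepa1-6 shLucif and those of CT26 with the same control hairpin was tested with limma on log2(FPKM + 1), at a Benjamini-Hochberg adjusted p under 0.05, over the 11906 genes that reached 1 FPKM in 3 or more of the 6 libraries. Among named genes Stra6, Aldh1a1 and Cxcl5 led the higher side, and Car6, Grem1 and Nefm led the lower side. In all 8664 genes were called (72.8%): 4647 higher (39.0%) and 4017 lower (33.7%) in the libraries labelled Hepa1-6 shLucif. At least 2-fold differences were called in 1943 genes (16.3%), 1055 higher (8.86%) and 888 lower (7.46%), of which 944 and 782 were protein-coding. The median log2 fold change of all tested genes was 0.05. Fold changes are log2 of FPKM + 1, which understates the change of low genes, and no fold of a single gene is given against a group listed at 0. The list medians below include such genes, so they depend on the pseudocount. A list member expressed in 1 group alone passed the minimum through that group, so the counts over tested members are descriptions, to be read beside the shares over all genes (39.0% higher and 33.7% lower).

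**Figure D3:**
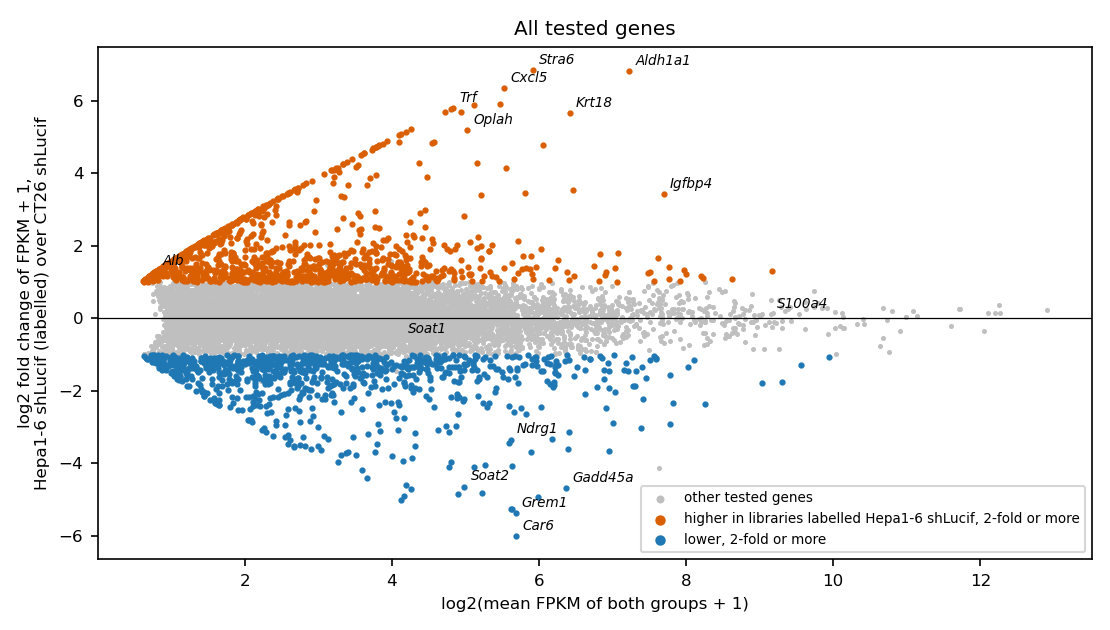
log2 fold change of FPKM + 1, libraries labelled Hepa1-6 shLucif over CT26 shLucif (vertical axis), against log2 of the mean FPKM of both groups plus 1 (horizontal axis); each point is 1 of 11906 tested genes. The 1055 genes called at least 2-fold higher are orange and the 888 called lower blue; Stra6 at 6.85 and Car6 at -6.0 are the extremes among named genes.

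At the higher end stood Stra6 and Aldh1a1, which handle retinoids. Stra6, the cell surface receptor for retinol binding protein (ENSMUSG00000032327, chromosome 9, 58063788 to 58153996), was at 113, 122 and 121 FPKM in the libraries labelled Hepa1-6 shLucif, against 0.00983, 0.0299 and 0.0720 in CT26 shLucif (log2 fold change 6.85, SE 0.0492, limma adjusted p = 3.70e-09). Aldh1a1, which oxidises retinal to retinoic acid and is used as a stem cell marker, was at 287, 294 and 305 FPKM, against 2.05, 1.38 and 1.5 (6.82, SE 0.0921, adjusted p = 1.88e-08). Rbp4, the plasma carrier of retinol, was at 25.9, 26.4 and 24.5 FPKM and is listed at 0 in each CT26 shLucif library (adjusted p = 9.39e-09). All 3 genes were high in every library labelled Hepa1-6 shLucif and low or at 0 in every CT26 shLucif library. Stra6 and Aldh1a1 averaged 97.4 and 130 FPKM in Hepa1-6 scramble and so were not below it, whereas Rbp4 was at 7.44% of its scramble level.

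Cxcl5 followed on the higher side. Cxcl5, a chemokine that draws neutrophils, was at 86.7, 89.9 and 94.2 FPKM in the libraries labelled Hepa1-6 shLucif, against 0.135, 0.155 and 0.0659 in CT26 shLucif (log2 fold change 6.35, limma adjusted p = 3.89e-09), and its mean of 90.3 exceeded the 36.7 of scramble and the 11.7 of Hepa1-6 DMSO. Krt8 and Krt18, the paired keratins of simple epithelium, averaged 86.0 ± 1.56 and 167 ± 4.35 FPKM in the libraries labelled Hepa1-6 shLucif, against 0.426 ± 0.0739 and 2.32 ± 0.110 in CT26 shLucif (5.93 and 5.66). Tspan8, a tetraspanin of epithelial cells, averaged 67.2 ± 2.32 FPKM, against 0.159 ± 0.0227 (5.88). Trf, the plasma iron carrier transferrin, was at 50.5, 59.1 and 55.0 FPKM, against 0, 0.0112 and 0 (5.80).

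Igfbp3, which binds insulin-like growth factors, was at 52.1, 53.6 and 55.2 FPKM in the libraries labelled Hepa1-6 shLucif and is listed at 0 in each CT26 shLucif library. Sprr1a was at 39.5, 32.3 and 37.3 FPKM and also listed at 0 in CT26 shLucif, while it reached 2589 FPKM on average in scramble. Nrn1, neuritin, was at 80.9, 21.5 and 75.3 FPKM, with 1 low library, and at 0 in each CT26 shLucif library. Their place among the 12 genes of largest log2 fold change depends on the pseudocount. Oplah, the enzyme that opens 5-oxoproline in the glutathione cycle, was at 60.4, 62.4 and 64.4 FPKM in the libraries labelled Hepa1-6 shLucif, against 0.720, 0.637 and 0.847 in CT26 shLucif (log2 fold change 5.19, SE 0.0584, limma adjusted p = 9.39e-09). Oplah was also low in scramble (2.30, 1.82 and 2.55 FPKM), and the libraries labelled Hepa1-6 shLucif stood above the libraries of the other 4 groups.

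Oplah was 1 of 19 protein-coding genes that averaged at least 10 FPKM in the libraries labelled Hepa1-6 shLucif, exceeded every library of the other 4 groups and were at least 2-fold over the highest group mean. At 4-fold there were 5: Lipo1, a lipase gene with close paralogs, Oplah, Krt7, Tnfsf9 and Slco4a1. Krt7, a keratin of ducts and glands, was at 15.2, 16.7 and 16.5 FPKM in the libraries labelled Hepa1-6 shLucif, against 0.280, 0.322 and 0.285 in CT26 shLucif (log2 fold change 3.72, limma adjusted p = 2.86e-08) and a mean of 0.144 in scramble and 1.79 in Hepa1-6 DMSO. Tnfsf9, the costimulatory ligand 4-1BBL, was at 53.3, 53.3 and 55.8 FPKM, against 6.71, 5.93 and 7.80 in CT26 shLucif (2.83, adjusted p = 3.91e-07), and is listed at 0 in each scramble library. Foxa1, a pioneer factor of endoderm, averaged 16.5 ± 0.411 FPKM, against 5.2 ± 0.457 in CT26 shLucif (1.5) and 2.09 in scramble. In the other direction the rule was stricter, since each of the other 4 groups had to average at least 10 FPKM. By this rule 6 protein-coding genes were below every other library at least 2-fold and 0 were at 4-fold. The counts above and below are therefore not comparable. Polr2c, a subunit of RNA polymerase II and 1 of the 6, was at 4.86, 4.90 and 4.83 FPKM, against 20.4, 19.9 and 20.8 in CT26 shLucif and a mean of 14.1 in scramble. These counts describe levels and carry no test.

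Car6 led the lower end. Car6, a secreted carbonic anhydrase (ENSMUSG00000028972, chromosome 4, 150187015 to 150201332), was at 0.435, 0.844 and 0.511 FPKM in the libraries labelled Hepa1-6 shLucif, against 103, 98.0 and 101 in CT26 shLucif (log2 fold change -6.0, SE 0.0944, limma adjusted p = 2.86e-08). Its CT26 DMSO mean was 3.53 FPKM, so the 2 groups of CT26 libraries differed as well. Grem1, a secreted BMP antagonist, was at 1.43, 1.37 and 1.44 FPKM, against 94.5, 102 and 101 (-5.37, adjusted p = 3.70e-09). Serpinf1, the antiangiogenic factor PEDF, was at 1.58, 1.48 and 1.46 FPKM, against 97.9, 94.8 and 92.3 (-5.26). Grem1 and Serpinf1 stood at 0.0164 and 0.0848 FPKM on average in scramble, so the libraries labelled Hepa1-6 shLucif were low but not at the scramble level. In CT26 DMSO Grem1 averaged 33.6 and Serpinf1 83.7 FPKM.

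Nefm and Nefl, the medium and light neurofilament chains, averaged 1.5 ± 0.0289 and 0.422 ± 0.167 FPKM in the libraries labelled Hepa1-6 shLucif, against 95.5 ± 1.81 and 35.8 ± 2.42 in CT26 shLucif (log2 fold changes -5.27 and -4.70). In CT26 DMSO they averaged 33.3 and 21.6 FPKM. The annotated spans of these genes overlap on opposite strands and the counting is not stated to use strand, so their reads may be shared. Lgals7, a galectin of stratified epithelium, averaged 3.04 ± 0.201 FPKM, against 121 ± 5.57 (-4.92), and Cdsn, corneodesmosin, 1.56 ± 0.287, against 71.0 ± 2.23 (-4.82). Il1rl1, the receptor of interleukin 33, averaged 0.165 ± 0.0350 FPKM, against 33.6 ± 1.96 (-4.89), Pla2g2e, a secreted phospholipase, 0.0488, against 32.9 ± 3.15 (-5.02), and Avil, the actin-severing protein advillin, 1.02 ± 0.196, against 56.5 ± 3.99 (-4.83). Gadd45a, a stress gene induced by p53 and ATF4, was at 4.86, 5.28 and 5.26 FPKM, against 156, 158 and 158 (-4.69, limma adjusted p = 3.70e-09); scramble averaged 4.57 and CT26 DMSO 12.6.

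The 6 protein-coding genes of at least 10 FPKM in both groups with the smallest difference were Rab8a, a GTPase of vesicle traffic, Rps20 of the small ribosomal subunit, Man1b1, a mannosidase of the endoplasmic reticulum, the splicing factor subunit Sf3b5, Adprhl2 and Bnip2. Rps20 was at 139, 125 and 125 FPKM in the libraries labelled Hepa1-6 shLucif, against 131, 129 and 128 in CT26 shLucif (limma adjusted p = 0.996). The ranges overlap, and the 2 means were both 129.

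The series turns on Soat1 (ENSMUSG00000026600, chromosome 1, 156424525 to 156474331), whose promoter is printed above. Soat1 was at 12.7, 12.8 and 13.6 FPKM in the libraries labelled Hepa1-6 shLucif, against 19.7, 19.8 and 20.2 in CT26 shLucif (log2 fold change -0.57, SE 0.0411, limma adjusted p = 1.95e-05). Scramble held 0.159, 0.182 and 0.0977 FPKM, so the libraries labelled Hepa1-6 shLucif stood between CT26 shLucif and scramble, nearer to CT26 shLucif. Soat2 was at 1.37, 1.40 and 1.55 FPKM, against 58.7, 61.9 and 59.2 in CT26 shLucif (-4.64, SE 0.0477, adjusted p = 7.81e-09), with 0.390, 0.577 and 0.591 in scramble. Both genes are CT26 genes by the DMSO rule, yet Soat1 stood at 65.6% and Soat2 at 2.40% of CT26 shLucif in the same libraries. In CT26 DMSO Soat1 averaged 12.3 and Soat2 13.3 FPKM. Both genes, and Soat2 more, thus differed between the 2 groups of CT26 libraries, and these shares depend on the CT26 group used. Abca1, the cholesterol efflux pump, was at 2.34, 2.26 and 2.33 FPKM, against 3.37, 3.74 and 3.82 (-0.49, adjusted p = 0.000296). Gpr132, the receptor in the title of the series, was at 0.783, 0.527 and 0.670 FPKM, against 0.141, 0.226 and 0.113, below the minimum for testing.

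Among plasma proteins of hepatocytes, 7 of 25 were tested and all 7 were higher, 4 of them at least 2-fold. The median log2 fold change was 1.31, against 0.05 over all genes tested; it is the value of Alb, listed at 0 in CT26 shLucif, and was 3.98 with a pseudocount of 0.1. Afp, the fetal counterpart of albumin, was among the smallest: 7.72, 7.89 and 7.74 FPKM in the libraries labelled Hepa1-6 shLucif, against 5.04, 5.89 and 6.36 in CT26 shLucif (0.38, limma adjusted p = 0.00370), with 138 on average in scramble. Itih2, a hyaluronan-binding plasma protein, averaged 21.2 ± 0.408 FPKM, against 0.178 ± 0.0520 (4.23). The summed level of the list was 114 to 123 FPKM in the libraries labelled Hepa1-6 shLucif, 10.4 to 11.3 in CT26 shLucif and 820 to 884 in scramble. Of the hepatocyte transcription factors 8 of 21 were tested, with 6 higher and 1 lower. Foxa2 was at 24.4, 19 and 22.3 FPKM and at 0 in each CT26 shLucif library. Cebpb, an inducible factor of the acute phase, was the 1 that was lower, at 43.3 ± 1.41 FPKM, against 132 ± 4.12 (-1.59). Of the apolipoprotein and lipoprotein list 10 of 23 were tested, with 6 higher and 2 lower; Apoe averaged 17.5 ± 1.79 FPKM, against 0.818 ± 0.0994 (3.35), and 293 in scramble.

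Most tested epithelial genes were higher. Of 29 adhesion and keratin genes 13 were tested, 12 were higher and 10 of them at least 2-fold (median 2.83, and 4.09 with a pseudocount of 0.1). Cldn3, a tight junction claudin, averaged 16.5 FPKM in the libraries labelled Hepa1-6 shLucif, against 0.0152 in CT26 shLucif (log2 fold change 4.10), and Dsp, desmoplakin, 6.76, against 0.0101 (2.94). The 1 lower member was Cldn6, at 46.8 ± 1.31 FPKM, against 68.9 ± 3.26 (-0.55, limma adjusted p = 3.54e-05); it averaged 0.0977 in scramble. Cdh1 and Epcam, the defining adhesion genes of epithelium, stayed under 1 FPKM in all 6 libraries. Of the intestinal epithelium markers 6 of 24 were tested, with 5 higher and 1 lower; Vil1, the brush border protein villin, averaged 4.09 ± 0.566 FPKM, against 0.0132, and Cdh17, intestinal cadherin, 6.20 ± 0.432, against 0.438 ± 0.0118. Both were far higher in scramble, at 61.1 and 208 FPKM. In CT26 shLucif, from a line labelled colon carcinoma, 22 of the 24 intestinal markers averaged under 1 FPKM. So did 19 in the libraries labelled Hepa1-6 shLucif and 17 in scramble.

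Most tested fibroblast markers were lower. Of 15 fibroblast markers 8 were tested, with 7 lower and 1 higher (median -1.83). Col1a2, a chain of type I collagen, was at 14.3, 16.0 and 16.0 FPKM in the libraries labelled Hepa1-6 shLucif, against 90.8, 90.5 and 91.1 in CT26 shLucif (log2 fold change -2.49, limma adjusted p = 7.06e-08), whereas its partner chain Col1a1 was at 12.6, 13.7 and 14.7, against 18.2, 18.0 and 19.6 (-0.42). Scramble held 0.0353 and 0.154 FPKM of them. The 1 higher marker was Dcn, decorin, at 17.1 ± 1.27 FPKM, against 0.750 ± 0.145 (3.37), which averaged 257 in scramble. The mesenchymal state list had 7 of 22 tested genes higher and 10 lower, with a median of -0.01; Snai2, the repressor Slug, was at 0.888, 1.26 and 0.765 FPKM, against 24.1, 25.6 and 23.4 (-3.69), next to Twist1 with no difference that passed the test. Of 30 tested matrix and protease genes 12 were higher and 15 lower, against 39.0% and 33.7% of all tested genes. Fewer cells of a type and less RNA per cell cannot be told apart in these bulk libraries.

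Interferon-stimulated genes were mostly lower. Of 48 tested, 34 were lower and 6 higher, 12 and 2 of them at least 2-fold (median -0.47); over all tested genes 33.7% were lower and 39.0% higher, 7.46% and 8.86% at least 2-fold. Ifit1, which binds foreign RNA, was at 6.56, 6.74 and 5.92 FPKM in the libraries labelled Hepa1-6 shLucif, against 38.6, 39.1 and 39.3 in CT26 shLucif (log2 fold change -2.43, limma adjusted p = 8.77e-08), and Isg15, a ubiquitin-like modifier, at 24.0, 31.4 and 35.7, against 116, 116 and 111 (-1.90). Scramble averaged 0.0132 and 1.29 FPKM, so both stood between the levels of CT26 shLucif and of scramble. Lgals3bp, a secreted glycoprotein, was at 92.4, 104 and 110 FPKM, against 25.6, 25.6 and 28.0 (1.91), and Ifi27l2a at 55.1, 55.1 and 64.5, against 13.6, 13.3 and 14.3 (2.01); both averaged under 10 FPKM in scramble. In the MHC class I list 7 of 19 tested genes were higher, a share near that of all genes (39.0%), and 10 lower. H2-D1 averaged 134 ± 5.81 FPKM, against 122 ± 2.28 (0.13), a call of limma that was lost without 1 library in 4 of 6 cases (adjusted p = 0.0195 with all libraries, 0.0503 to 0.0664 in those cases).

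Of 22 tested chemokine, cytokine and receptor genes, 13 were higher and 9 lower, 12 and 7 of them at least 2-fold (median 1.27). Over all tested genes 39.0% were higher and 33.7% lower, 8.86% and 7.46% at least 2-fold. The neutrophil chemokines Cxcl1 and Cxcl3 averaged 24.8 and 20.0 FPKM in the libraries labelled Hepa1-6 shLucif, against 0.651 and 0 in CT26 shLucif, and Ccl2, which draws monocytes, 35.9, against 3.92 (log2 fold change 2.91). Il11, a cytokine of the interleukin 6 family, averaged 0.475 ± 0.0329 FPKM, against 18.3 ± 0.990 (-3.71), and Ccl5, which draws T cells, 2.53, against 13.6 (-2.05). Of 17 tested Wnt genes 14 were higher and 2 lower (median 0.94). The feedback genes Sp5 and Axin2 were at 27.5, 26.0 and 28.3 FPKM and at 12.8, 12.7 and 13.5 FPKM in the libraries labelled Hepa1-6 shLucif, while CT26 shLucif held 0 of Sp5 in each library and at most 0.0112 of Axin2. Ccnd1, cyclin D1, averaged 315 FPKM, against 116 (1.43), and also exceeded the 188 of scramble.

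Metabolic lists had genes on both sides, and over all tested genes 39.0% were called higher and 33.7% lower. Of 20 tested cholesterol synthesis genes 12 were higher and 6 lower (median 0.43). Fdft1, which makes squalene, was lower, at 7.95 FPKM in the libraries labelled Hepa1-6 shLucif, against 14.8 in CT26 shLucif (log2 fold change -0.82). Of 27 tested glycolysis and hypoxia genes 19 were higher and 7 lower (median 0.52); Eno1, enolase, averaged 359 FPKM, against 140 (1.35), Aldoa, aldolase, 412, against 188 (1.13), and Ndrg1, a hypoxia-induced gene, 7.81 ± 1.17, against 88.2 ± 1.86 (-3.35). Of 24 tested NRF2 genes 15 were higher and 5 lower (median 0.59), with Gsr, glutathione reductase, at 61.6 FPKM, against 16.2 (1.86). The metallothioneins Mt1 and Mt2, which bind zinc and copper, averaged 65.6 and 73.7 FPKM, against 242 and 375 (-1.88 and -2.34). Of 32 tested mitosis and replication genes 20 were higher and 5 lower, with 0 at least 2-fold in either direction, and of 28 tested cytosolic ribosomal protein genes 9 were higher and 9 lower.

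**Figure D4:**
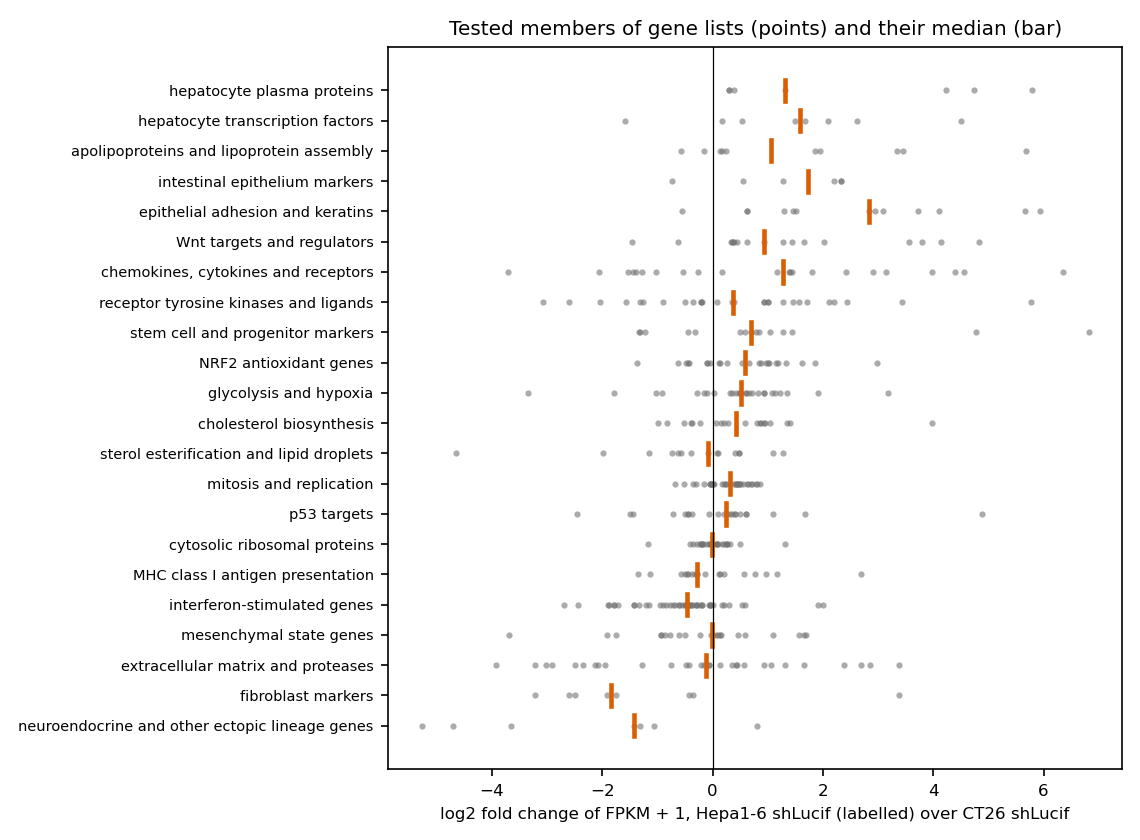
log2 fold change of FPKM + 1, libraries labelled Hepa1-6 shLucif over CT26 shLucif (horizontal axis), for the tested members of 22 gene lists (rows); each point is 1 gene and each bar the median of its list. The median was 2.83 for epithelial adhesion and keratins and -1.83 for fibroblast markers, and within most lists genes lie on both sides of 0.

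The difference between the shLucif groups was set beside that between Hepa1-6 DMSO and CT26 DMSO, which share no library with it. Under DMSO 9622 of 12332 tested genes were called (78%; 38.9% of tested genes higher and 39.1% lower) and 3143 at least 2-fold (25.5%), more than the 1943 between the shLucif groups. Over 8927 genes called under DMSO and tested in both, 4236 were higher in Hepa1-6 DMSO; 2643 of them were called higher and 619 called lower in the libraries labelled Hepa1-6 shLucif. Of the 4691 genes lower in Hepa1-6 DMSO, 2577 were called lower and 1031 called higher in the libraries labelled Hepa1-6 shLucif. Among the 2626 genes called at least 2-fold under DMSO and tested in both, the shLucif log2 fold change had a median ratio of 0.456 to the DMSO one. Of the 1151 such genes that were higher in Hepa1-6 DMSO, 970 were called higher and 66 lower in the libraries labelled Hepa1-6 shLucif, and of the 1475 lower ones, 1098 were called lower and 166 higher. Among all genes tested under DMSO, 1597 were called at least 2-fold higher and 1546 lower, so more of the higher ones dropped out. A gene absent from CT26 shLucif was tested between the shLucif groups only if it reached 1 FPKM in the libraries labelled Hepa1-6 shLucif. The counts over genes tested in both, and the median ratio, therefore describe only the genes that remained. Interferon-stimulated genes had a median of -0.47 between the shLucif groups and of -1.80 between the DMSO groups, and hepatocyte plasma proteins 1.31 and 4.26. For glycolysis and hypoxia genes the medians were 0.52 and -0.36, and for mitosis and replication genes 0.32 and -0.33, on opposite sides of 0. Other lists had this pattern too, among them NRF2 genes (0.59 and -0.16), cholesterol synthesis genes (0.43 and -0.03) and immune checkpoint ligands (-0.48 and 0.32). The difference between the 2 differences was not tested, since the tables were normalised separately.

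**Figure D5:**
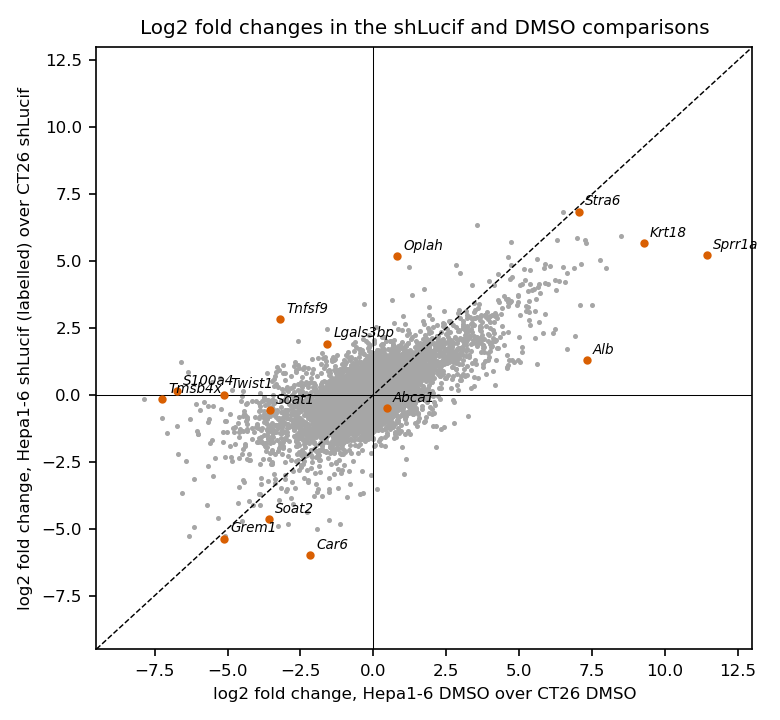
log2 fold change of FPKM + 1 of genes tested in both experiments: libraries labelled Hepa1-6 shLucif over CT26 shLucif (vertical axis) against Hepa1-6 DMSO over CT26 DMSO (horizontal axis); each point is 1 gene and the dashed line marks equality. Most genes with large differences under DMSO lie nearer 0 on the vertical axis; Twist1 is at 0.01 there and at -5.11 under DMSO, while Stra6 is at 6.85 and 7.06.

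Set against Hepa1-6 scramble, which by its labels differs from it only in the hairpin, the group labelled Hepa1-6 shLucif differed in 8221 of 12055 tested genes (68.2%), 4432 higher (36.8%) and 3789 lower (31.4%), and at least 2-fold in 1650 genes (13.7%), 810 higher (6.72%) and 840 lower (6.97%). This comparison shares its 3 libraries labelled Hepa1-6 shLucif with the one against CT26 shLucif. Interferon-stimulated genes were higher in 43 of 45 tested, 32 of them at least 2-fold (median 1.38), and of 18 tested epithelial genes 14 were lower (median -0.55). Of 28 tested cytosolic ribosomal protein genes 23 were higher (median 0.43). Oplah (log2 fold change 4.30) and Krt7 (3.90) were higher than in scramble as well as higher than in CT26 shLucif.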

How the data were processed

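RNA was measured by sequencing in 45 labelled samples of 2 lines. Per the labels' protocols, total RNA was taken with TRIzol, a SMARTer kit was used for certain samples, and paired reads of a HiSeq instrument went through Skewer for trimming. Per the submitters' processing notes the tools and build were GRCm38, HISAT2, STAR, DESeq2 and edgeR, with no role or version stated; which of them made the FPKM is not given in the sources used here. The authors deposited FPKM of 55335 genes in 1 table per experiment, whose file names are swapped, so tables were taken by their column names. Of the columns 30 match a labelled sample or, for CT26 sh1, a labelled group without a single sample. Another 21 match none and were not used.

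Tests used limma 3.58.1 under R 4.3.3 (mean-variance trend, two-sided) on log2(FPKM + 1), within 1 table, for genes that reached 1 FPKM in 3 or more of the 6 libraries; calls are Benjamini-Hochberg adjusted p under 0.05. An exact permutation test of 3 against 3 cannot go below 0.1 and was not used. The test was checked on simulated data. Biotypes and coordinates are from GENCODE M21 (55154 genes matched), and figures and joins used Python 3.11.15 with pandas 2.3.3. The 37 gene lists (963 entries; Ccn1, Ccn2, H2-L and Hjv matched no gene) and the comparison were chosen with earlier results of these data known. Named genes are the 12 highest and 12 lowest log2 fold changes among protein-coding genes called at least 2-fold, without overlap and with a group mean of at least 10 FPKM, the list members described, Soat1, Soat2, Gpr132 and Abca1, and the 6 genes nearest 0. The 5 genes above all other groups, with Foxa1, Polr2c, Tmsb4x and Slc25a4, were named after their values were seen. Some genes that the rule names are not reported here. Relative depth is the most frequent ratio of FPKM up to 0.05 between libraries (ratios within 0.01 log2 count as equal). Alternatives covered the pseudocount, filters, scaling, model, replicate block, single libraries and gene class.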

Additional observations from a re-analysis of the deposited data

Results flagged for a closer look

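In 8 of the 92 named genes tested in both experiments (8.7%) every library labelled Hepa1-6 shLucif lay on 1 side of every CT26 shLucif library while every Hepa1-6 DMSO library lay on the opposite side of every CT26 DMSO library; the difference between the experiments was not tested. Over all 11536 genes tested in both, 1893 (16.4%) had such a pattern. Tnfsf9, Slco4a1 and Foxa1 were named after their values were seen. On the scale of log2 FPKM + 1, Tnfsf9 differed by 2.83 between the shLucif groups and by -3.20 between the DMSO groups. Slco4a1, an organic anion carrier, differed by 2.47 and -1.59. Foxa1 differed by 1.5 and -0.95. Lgals3bp differed by 1.91 and -1.58, and Ifi27l2a by 2.01 and -2.60. Eno1 differed by 1.35 and -0.65. Abca1 and Areg had the reverse pattern, with -0.49 and 0.45 for Abca1 and -1.26 and 2.33 for Areg. Groups of 3 libraries are too small for a search for single outlying samples.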

How the results depend on the processing

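Counts of calls stayed within 1.5 times their value under every alternative run, with 2 exceptions. With at least 5 FPKM required in 3 libraries, 1264 genes differed at least 2-fold in place of 1943, because fewer genes were tested. With the scramble libraries in place of those labelled Hepa1-6 shLucif, a comparison added after seeing the data, 3681 did. Without single libraries the counts were 8289 to 8557 (1965 to 1994 at least 2-fold). The share called higher was 53.6%, with 50.3% under quantile normalization and 49.9% with each library centred on its median. At least 2-fold it was 54.3%, with 48.8% under quantile normalization and 49.5% at 5 FPKM, so which direction holds more genes depends on these choices. A stricter choice of line genes gave 93.5% of 46 Hepa1-6 genes at 1 FPKM or more, and a looser one 79.9% of 348. With a pseudocount of 0.1, added later, the libraries labelled Hepa1-6 shLucif correlated at 0.823 with Hepa1-6 DMSO and 0.852 with CT26 DMSO. Same-numbered replicates deviated together at r = 0.073, 0.097 and 0.0036, and differently numbered ones at -0.118 to 0.0518. These small values do not settle whether the numbers pair the samples. The replicate block gave 8463 called genes. Of 93 named genes, all stayed on their side of the limma threshold, and called genes kept their direction, except H2-D1, whose call was lost (adjusted p 0.0503 to 0.0664 in 5 of 14 settings). Of 517 list medians 90 moved by more than the SD of the list median over the 3 libraries labelled Hepa1-6 shLucif, and 6 changed side of 0. This SD leaves out the spread between CT26 shLucif libraries. The median of coagulation genes was 0.31, and -0.78 with the 5 FPKM minimum. Depth is unknown and limits genes near 1 FPKM.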

Other observations

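Of 28 tested receptor tyrosine kinases and ligands, 13 were called higher and 11 lower by limma in the libraries labelled Hepa1-6 shLucif (median log2 fold change 0.37), near the shares over all tested genes (39.0% and 33.7%). Igfbp4, which binds insulin-like growth factors, averaged 378 FPKM in the libraries labelled Hepa1-6 shLucif, against 34.6 in CT26 shLucif (3.44), and Ephb4, an ephrin receptor, 29.1, against 5.97 (2.11). Ereg and Areg, ligands of the epidermal growth factor receptor, were lower, at 15.6 and 43.4 FPKM, against 67.3 and 105 (-2.04 and -1.26). Egfr itself averaged 1.07 FPKM, against 0.0331, and 23.4 in Hepa1-6 scramble.

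Of 22 tested p53 targets 12 were higher and 8 lower (median 0.24), against 39.0% and 33.7% of all tested genes. Plk3, a stress-induced kinase, averaged 11.1 FPKM, against 65.6 (-2.45), and Bbc3, which encodes the apoptosis inducer PUMA, 8.16, against 24.9 (-1.5), while Cdkn1a, the cell cycle inhibitor p21, averaged 112, against 72.9 (0.61). Perp was at 30.9, 27.9 and 27.0 FPKM and is listed at 0 in each CT26 shLucif library. Of 23 tested lysosomal genes 11 were higher and 10 lower; Gusb, beta-glucuronidase, averaged 25.7 FPKM, against 5.73 (1.98), and Ctsl, cathepsin L, 147, against 371 (-1.33).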
